A study of Mus musculus with 24 samples.

Results

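The 42 genes described here encode the ligands of the Wnt pathway, proteins that hold those ligands back or boost their signal, and the machinery that carries the signal into the nucleus. They are 19 Wnt ligands, 9 secreted antagonists (4 secreted Frizzled-related proteins with Frzb, 3 Dickkopf proteins and Wif1), 3 R-spondins, the co-receptors Lrp5 and Lrp6, the 5 transducers Axin1, Axin2, Apc, Gsk3b and Ctnnb1, and the 4 TCF/LEF factors Lef1, Tcf7, Tcf7l1 and Tcf7l2. They were chosen by name, with the Frizzled receptors left out, and each of the 42 stood on 1 line of the ESC and the NPC RNAseq tables, which hold 21909 gene symbols. The study mapped the parts of the mouse genome that lie at the nucleolus, called nucleolus-associated domains (NADs), in embryonic stem cells (ESCs) and in neural progenitor cells (NPCs), and measured RNA in both cell types.

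RNA came from 3 ESC and 3 NPC samples, each from a separate culture dish. The ESCs were E14 cells, an established mouse line, grown without feeder cells in medium with leukemia inhibitory factor (LIF, 1000 U/ml), the MEK inhibitor PD0325901 (1 µM) and CHIR99021 (3 µM), an inhibitor of the kinase GSK3β that the Wnt pathway also holds back. The labels' wording of the medium seems to offer a choice but names no other, so the use of both inhibitors for each ESC sample rests on this text. The NPCs were made from ESCs as embryoid bodies over 8 days in medium with serum and without these inhibitors, with 2 µM retinoic acid during the last 4 days. NADs came from cells carrying a bacterial adenine methylase fused to histone H2B and a nucleolar localisation signal, or the same fusion without that signal, 2 samples each, switched on for 15 h with doxycycline (100 ng/ml) and Shield1 (1 µM). Medium, time in culture and cell type differ together between the ESC and NPC samples and cannot be told apart.

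Wnt proteins are secreted, lipid-modified signals that bind Frizzled receptors together with LRP5 or LRP6. Without a signal, a complex of Axin, APC and GSK3 marks β-catenin for destruction. With a signal the complex is blocked, and β-catenin enters the nucleus and joins TCF/LEF factors on target genes. In the embryo the pathway sets posterior and dorsal identity of the neural tube and drives mesoderm formation, and in mouse ESCs its activation by GSK3 inhibition helps to keep the cells undifferentiated.

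The values are RPKM, that is, reads scaled to the length of the gene and to the depth of the sample. Multiplied by the whole span of the gene from its first to its last base, introns included, 96.3% (median over the 6 samples) of values worth 1 to 100 reads came out within 0.05 of a whole number of reads, against 14.3% with the length of the exons alone. The RPKM were thus divided by gene span, which the study's methods do not state and which makes long genes with large introns look low. The reads behind each value could be recovered, and the totals behind the RPKM came to 34051992, 33732018 and 30779728 reads for the ESC samples and 30151252, 27262786 and 32297555 reads for the NPC samples. Where genes are compared with each other, levels are given as exon RPKM, the same values divided by exon length in place of gene span. The study's methods speak of coverage of exons, and whether reads in introns were counted could not be settled. If they were, exon RPKM is too high for genes with long introns, and the order of genes is limited by this. Intervals and floors from reads cover counting error only, and a gene with 0 reads over the 3 samples of a cell type is taken to allow up to 3 reads there.

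ESC replicate 3 stood apart from the other ESC samples. Among 10231 genes with at least 100 reads in both ESC replicates 1 and 2, 16.9% differed more than 2-fold between replicate 3 and the mean of the others, while none differed that much between replicates 1 and 2. The deviation followed transcript length. In the group with the shortest transcripts, 1 of 5 groups by exon length, with up to 2662 exon bases, the median log2 ratio of replicate 3 over the others was 0.51, and in the group with the longest, from 7895 bases, it was -0.90. Of the Wnt pathway genes with at least 100 reads, Apc, Lrp5, Axin2, Gsk3b and Lrp6 were read lowest in replicate 3, with log2 ratios of -1.93, -1.26, -1.15, -1.15 and -1.07. Lef1, with 8788 exon bases, was at -0.01, so not every long transcript was affected. Single genes lay on both sides of the median of their length group. Axin2, with 5506 exon bases, was below the -0.50 of its group, and Lef1 was above the -0.90 of the longest. Results on the genes read lowest in replicate 3 are given with and without this sample.

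**Figure D1:**
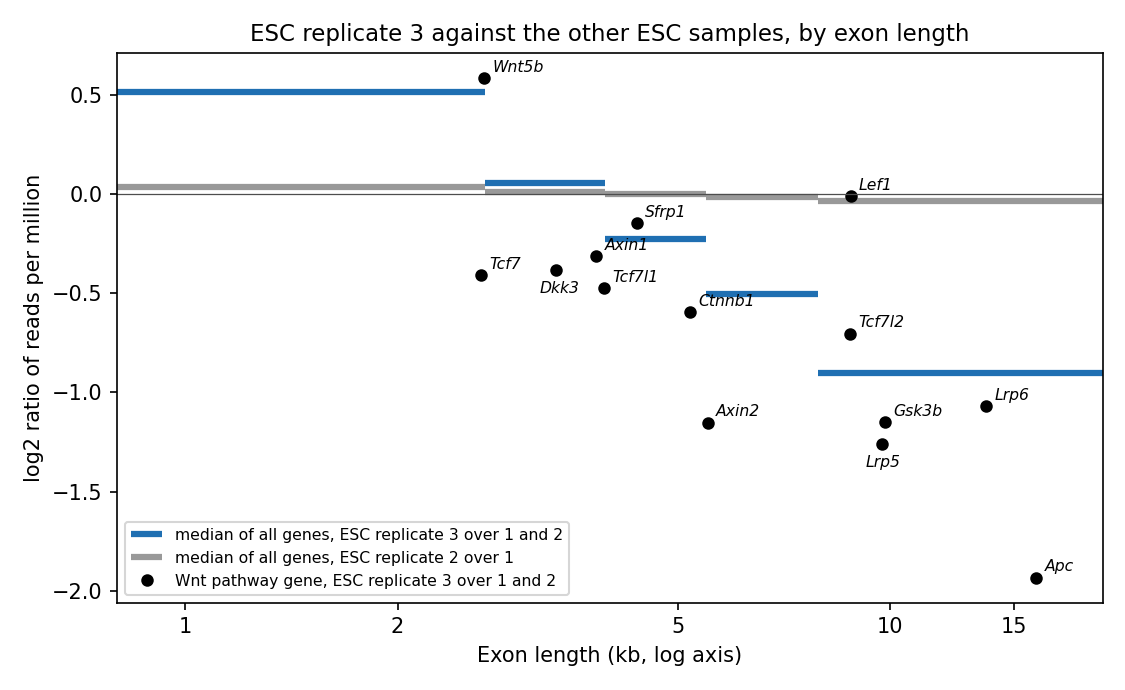
The log2 ratio of depth-scaled reads between ESC samples is plotted against exon length (kb, log axis). Blue bars are the median of ESC replicate 3 over the mean of replicates 1 and 2 in 5 groups of genes by exon length, grey bars that of replicate 2 over replicate 1, and points are Wnt pathway genes with at least 100 reads, the outer bars being drawn only to the ends of the axis. The blue bars run from 0.51 to -0.90 while the grey bars stay between -0.04 and 0.03.

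The labelled cell types were set against marker genes, all of which were found in the tables. The 7 ESC markers summed to 3579, 3564 and 6889 exon RPKM in the ESC samples and 5.06, 4.35 and 4.48 in the NPC samples, with Dppa5a the most abundant in ESCs and Klf4 in NPCs. The 6 neural progenitor markers summed to 72.3, 75.4 and 91.3 exon RPKM in ESCs and 136, 143 and 147 in NPCs, with Vim the most abundant in both and Hes5 at 0 reads in ESCs. In the NPC samples Nes was at 43.5, 47.7 and 42.9 exon RPKM, Pax6 at 3.77, 3.47 and 4.06 and Sox1 at 1.27, 1.12 and 1.81, so these defining genes were read, Pax6 and Sox1 at low levels. Their ESC levels are not given here, so no change between the cell types is read from them.

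Among markers of other cell types, the sums of most lists were higher in the NPC samples. The 6 mesenchyme markers summed to 0.295, 0.323 and 0.176 exon RPKM in ESCs and 164, 169.6 and 168 in NPCs, where Col3a1 led and no marker was at 0 reads, while Dcn had 0 reads in ESCs. Col3a1, Col1a1, Pdgfra and Col1a2 carried the NPC sum, while Dcn, at 0.138 to 0.187 exon RPKM, and Lum, at 0.176 to 0.240, were low there. The 8 mesoderm and endoderm markers summed to 4.46, 4.89 and 3.80 exon RPKM in ESCs, with T the most abundant and Afp and Ttr at 0 reads, and to 147, 151 and 153 in NPCs, where Gata4 led at 109, 109 and 112 and Gata6 followed at 32.5, 35.8 and 35.2. Gata4 and Gata6 carried the higher sum, while T and Mixl1 were lower in every NPC sample than in any ESC sample. T was at 3.03 to 3.64 exon RPKM in ESCs and 0.0317 to 0.0573 in NPCs, and Mixl1 at 0.227 to 0.323 and 0.0480 to 0.173. Both sums lay near or above that of the neural progenitor list in the NPC samples. The 4 neural crest markers summed to 10.9, 11.4 and 9.49 in ESCs, led by Foxd3, and 30.4, 37.7 and 36.0 in NPCs, led by Twist1, which mesenchyme also expresses. Twist1 carried the higher sum, at 28.8 to 36.0 exon RPKM in NPCs, and Sox10 was at 0.235 to 0.328, while 2 other genes of the list were lower in NPCs. Foxd3 was at 7.16 to 8.14 exon RPKM in ESCs and 0.805 to 0.871 in NPCs, and Tfap2a at 2.13 to 2.96 and 0.379 to 0.539. The 5 roof plate and dorsal neural tube markers summed to 0.420, 0.498 and 0.438 in ESCs and 8.96, 11.1 and 12.4 in NPCs, both led by Msx1. Msx1, Pax3 and Pax7 carried the higher sum, while Gdf7, at 0.0625 to 0.137 exon RPKM in ESCs and 0.0699 to 0.131 in NPCs, had overlapping groups. The 6 neuron markers summed to 80.7, 86.7 and 106 in ESCs, led by Stmn2, and 45.9, 37.5 and 43.9 in NPCs, led by Tubb3, but this list went both ways. Stmn2 and Tubb3 were lower in every NPC sample than in any ESC sample, while Dcx, with 0 reads in ESCs, Map2, Elavl3 and Elavl4 were higher, at 5.03 to 6.44, 2.23 to 2.47, 3.95 to 4.71 and 3.42 to 4.02 exon RPKM in the NPC samples. The part of these marker genes' cells in the results on Wnt pathway genes was not tested, and in bulk RNA more cells of a type and more RNA per cell cannot be told apart.

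NPCs were compared with ESCs by limma on log2(RPKM + 1) over the 12027 genes with a mean of at least 0.1 RPKM over the 6 samples, with Benjamini-Hochberg adjustment. Of the 42 Wnt pathway genes, 24 passed this filter, and among them 15 rose and 3 fell in NPCs at adjusted p under 0.05, while 6 did not pass the test. Over all genes tested 71.9% were called, 41.9% higher and 30.0% lower in NPCs. With a difference of at least 1 in addition, 11 Wnt pathway genes rose and 0 fell, against 10.9% and 7.97% of all genes. Ctnnb1 was among the 11 with a difference of 1.0004, but lay at 0.81 without ESC replicate 3 and at 0.72 with median-of-ratios scaling. Without ESC replicate 3, 5 genes fell, Axin1 and Axin2 being added, but over all genes calls went from 71.9% to 87.0%, with 4684 of 12095 genes lower against 3606 of 12027 with all samples. The median difference was 0.70 over the 24 genes and 0.09 over all genes tested. The other 18 genes lay under the filter, and since a gene silent in ESCs can pass only through its NPC level, these counts describe the list and support no direction for it.

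A test chosen after seeing the data, limma voom on the recovered reads, could take in all 42 genes. It called 31 higher and 4 lower in NPCs, where 72.5% of 16111 genes were called, 45.6% higher and 27.0% lower. Differences below are on the log2(RPKM + 1) scale, which understates the change of genes with low RPKM, and folds are ratios of mean RPKM. Every p-value measures the spread between culture dishes of 1 line.

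Most Wnt ligand genes were near silent in ESCs and 5 of them exceeded 5 exon RPKM in NPCs. Of the 19 ligands 7 passed the filter, and all 7 of these rose: Wnt4, Wnt11, Wnt2b, Wnt9a, Wnt5a, Wnt1 and Wnt6. Of all genes 41.9% were called higher, and a ligand near silent in ESCs can pass the filter only through its NPC level. With limma voom on recovered reads, chosen after seeing the data, 17 of the 19 were higher, 1 was lower and 1 was not called. Voom called 45.6% of all 16111 genes higher and 27.0% lower. Per exon length the highest in NPCs was Wnt4 at 32.6 ± 2.46 exon RPKM (SD, n = 3), followed by Wnt11 at 17.2 ± 2.36, Wnt9a at 15.2 ± 2.55, Wnt2b at 8.92 ± 1.03 and Wnt5a at 5.20 ± 0.119. Wnt4 lay above Wnt11 and Wnt11 above Wnt9a in each of the 3 NPC samples, though the ranges of Wnt11 and Wnt9a over samples overlapped. The mesenchyme marker sum given above and Gata4 and Gata6 were higher in the same 3 samples, and their part in these rises was not tested. In ESCs the highest ligand was Wnt5b at 2.75 ± 0.689 exon RPKM, and each of the other 18 was at 0.248 or less.

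**Figure D2:**
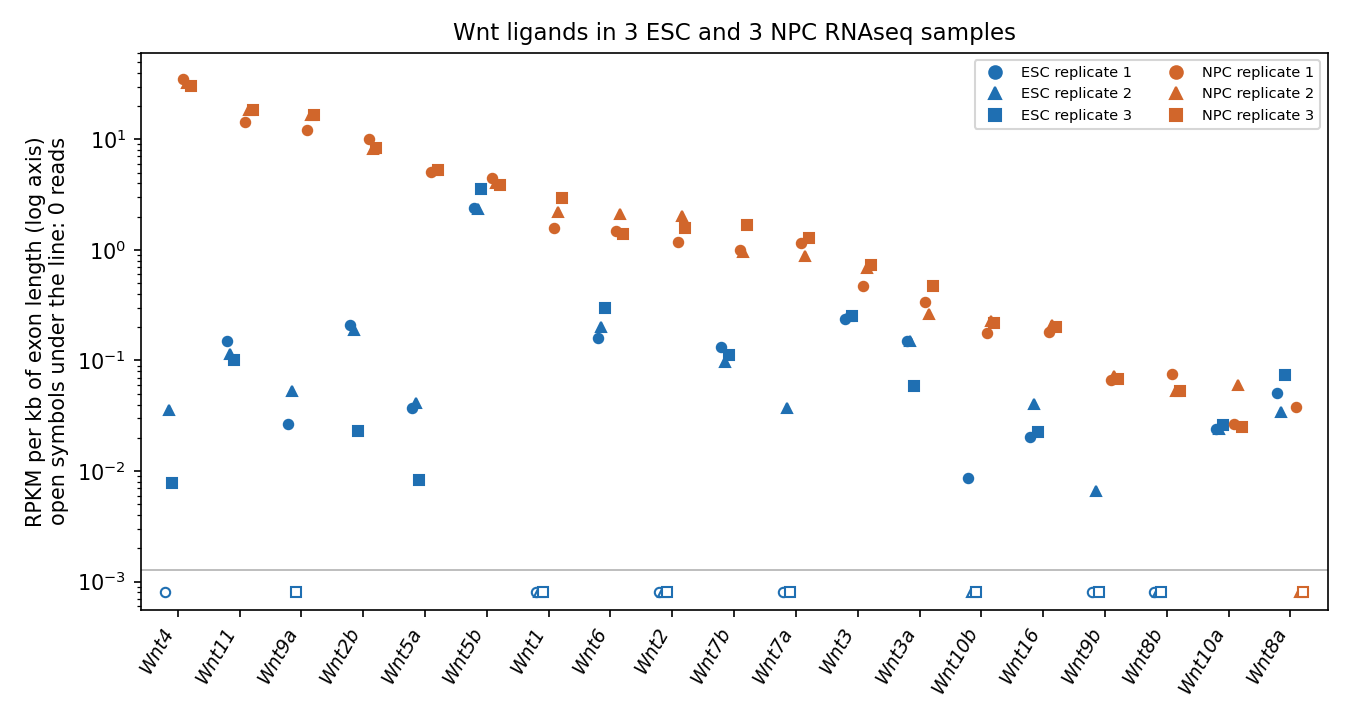
Level of each of the 19 Wnt ligands in the 3 ESC samples (blue) and the 3 NPC samples (orange), as RPKM per kb of exon length on a log axis, with 1 symbol per sample and open symbols under the grey line for 0 reads. Wnt4, at 30.5 to 35.3 in the NPC samples, is the highest, and the groups overlap in Wnt10a and Wnt8a.

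Wnt4, a ligand that acts mainly outside the β-catenin branch and is known from kidney, gonad and dorsal spinal cord, lies at chr4:137277489-137299726, plus strand (GRCm38). Wnt4 was at 0, 0.00667 and 0.00146 RPKM in the ESC samples and at 6.67, 6.04 and 5.76 RPKM in the NPC samples. This is 6 reads over the 3 ESC samples and 12268 over the NPC samples (difference 2.83 ± 0.07 (SE), limma adjusted p = 4.90e-07). Wnt11 was at 0.0307, 0.0236 and 0.0210 RPKM in the ESC samples and at 2.98, 3.83 and 3.82 RPKM in the NPC samples. Wnt11, which directs cell movements in gastrulation and heart development, was 141-fold higher in NPCs (difference 2.14 ± 0.09 (SE), limma adjusted p = 2.38e-06). Wnt2b was at 0.0529, 0.0481 and 0.00585 RPKM in the ESC samples and at 2.55, 2.08 and 2.13 RPKM in the NPC samples. Wnt2b, a ligand of the dorsal midline and the eye margin, was 63.2-fold higher (difference 1.65 ± 0.07 (SE), limma adjusted p = 2.38e-06), and without ESC replicate 3, which held 3 reads against 30 and 27 in the others, 44.6-fold higher. In each of these genes the lowest NPC sample lay far above the highest ESC sample.

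Wnt9a was at 0.00331, 0.00668 and 0 RPKM in the ESC samples and at 1.53, 2.09 and 2.06 RPKM in the NPC samples. It had 9 reads over the ESC samples and 4521 over the NPC samples (difference 1.52 ± 0.08 (SE), limma adjusted p = 8.11e-06). Wnt5a was at 0.0129, 0.0144 and 0.00286 RPKM in the ESC samples and at 1.75, 1.81 and 1.82 RPKM in the NPC samples. Wnt5a, the best known ligand of the branch that works through planar polarity and calcium, was 178-fold higher (difference 1.47 ± 0.04 (SE), limma adjusted p = 4.99e-07), or 131-fold higher without ESC replicate 3. Its 3 NPC samples lay close together, with an SD of 0.0412 RPKM. Wnt1 was at 0, 0 and 0 RPKM in the ESC samples and at 0.933, 1.32 and 1.77 RPKM in the NPC samples. Wnt1, a β-catenin-activating ligand of the midbrain and the dorsal neural tube, had no read in any ESC sample and 482 in the NPC samples, which is at least 177-fold higher against a floor of 3 reads over the ESC group (difference 1.21 ± 0.12 (SE), limma adjusted p = 1.53e-04). The NPC samples spread more for Wnt1 than for Wnt5a, from 0.933 to 1.77 RPKM. Wnt6 rose from 0.0359 ± 0.0113 to 0.272 ± 0.0636 RPKM (SD, n = 3 each, limma adjusted p = 4.30e-04).

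The other 12 ligands stayed under the filter and are given by their reads. Wnt2 had 0, 0 and 0 reads in the ESC samples and 81, 124 and 116 in the NPC samples, at least 118-fold higher against the floor. Wnt7a had 0, 4 and 0 reads in the ESC samples and 111, 76 and 130 in the NPC samples. Wnt7b had 22, 16 and 17 reads in the ESC samples and 148, 129 and 264 in the NPC samples. In these 3 genes every NPC sample had more reads than any ESC sample. Wnt3, the ligand that starts the primitive streak, was at 0.248 ± 0.00785 exon RPKM in ESCs and 0.630 ± 0.137 in NPCs. Wnt3a, needed for posterior mesoderm, was at 0.119 ± 0.0524 exon RPKM in ESCs and 0.358 ± 0.104 in NPCs. In both genes the ESC and NPC samples did not overlap, but each value rests on 5 to 73 reads a sample. Wnt10b had 1 read over the ESC samples and 63 over the NPC samples, a ratio of 69.2 (exact 95% counting interval 12.0 to 2777). Wnt9b had 1 read in ESCs and 28 in NPCs, a ratio of 30.8 (5.09 to 1258). Wnt16 had 12 reads in ESCs and 77 in NPCs, and Wnt8b, a forebrain ligand, 0 and 19, so these 4 genes too were read mostly in NPCs but rest on few reads. Wnt10a, with 6 and 8 reads, was hardly read in either cell type (voom adjusted p = 0.409). Wnt8a had the opposite order, with 9 reads in ESCs and 2 in NPCs, but its groups overlapped and the numbers are too small to show a difference that holds in every test (voom adjusted p = 0.0439, limma on log2(RPKM + 1) without the filter adjusted p = 0.0655).

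Wnt5b was the ligand read most in ESCs. Wnt5b was at 0.0565, 0.0554 and 0.0843 RPKM in the ESC samples and at 0.106, 0.0955 and 0.0908 RPKM in the NPC samples. The groups did not overlap, with 714 reads over the ESC samples and 978 over the NPC samples (voom adjusted p = 0.0240), and ESC replicate 3 was the highest of the ESC samples. The gene Fbxl14 lies inside Wnt5b on the opposite strand and was at 27.4 RPKM in ESCs and 16.3 in NPCs. The study's methods name a stranded kit and the labels a different one. Whether reads were counted by strand is not settled by the sources used here, so a share of Fbxl14 reads within the Wnt5b values was not tested.

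Of the ligands 8 lie in 4 pairs of neighbours, and members of a pair did not reach the same level. Wnt1 (chr15:98789857-98793837) and Wnt10b (chr15:98770712-98778150) point away from each other with 11706 bases between them, and in NPCs they were at 2.24 ± 0.697 and 0.207 ± 0.0274 exon RPKM. Wnt9a (chr11:59306928-59333552) and Wnt3a (chr11:59248033-59290752) point away from each other over 16175 bases, and were at 15.2 ± 2.55 and 0.358 ± 0.104. Wnt3 (chr11:103774150-103817957) and Wnt9b (chr11:103727364-103749821) are separated by 24328 bases and were at 0.630 ± 0.137 and 0.0692 ± 0.00355. Wnt6 (chr1:74771892-74785322) is followed on the same strand by Wnt10a (chr1:74791516-74804179) after 6193 bases, and they were at 1.66 ± 0.389 and 0.0371 ± 0.0193. In each pair 1 gene was at least 3 times the other in NPCs by the mean level.

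The 3 R-spondins read here, secreted proteins that strengthen Wnt signals by keeping Frizzled receptors at the cell surface, were all near silent in ESCs. Rspo1 was at 0.0337, 0.0340 and 0.0315 RPKM in the ESC samples and at 2.17, 2.45 and 2.13 RPKM in the NPC samples. Rspo1 was 68.0-fold higher in NPCs (difference 1.65 ± 0.05 (SE), limma adjusted p = 1.04e-06), and at 26.3 ± 2.07 exon RPKM it was the highest of the 3. Rspo2 had 1, 1 and 2 reads in the ESC samples and 303, 190 and 210 in the NPC samples. Rspo3 had 3, 0 and 2 reads in the ESC samples and 288, 166 and 226 in the NPC samples. Both lie under the filter, and in both every NPC sample was above every ESC sample, with levels of 1.53 ± 0.377 and 2.44 ± 0.581 exon RPKM in NPCs.

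The secreted antagonists did not move together. Of the 9 genes 6 passed the filter, of which 3 rose (Sfrp1, Sfrp2 and Sfrp5), 1 fell (Sfrp4) and 2 did not pass the test (Dkk1 and Dkk3), where 41.9% of all genes were called higher and 30.0% lower. With limma voom on recovered reads 6 of the 9 were higher, 1 was lower and 2 were not called. Of 16111 genes voom called 45.6% higher and 27.0% lower. Sfrp1 was the most abundant antagonist in both cell types, at 38.0 ± 2.3 exon RPKM in ESCs and 134 ± 1.46 in NPCs (SD, n = 3), above every Wnt ligand in each. Secreted Frizzled-related proteins carry the Wnt-binding domain of the receptor and can bind Wnt ligands outside the cell.

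Sfrp1 was at 4.44, 4.57 and 4.06 RPKM in the ESC samples and at 15.5, 15.2 and 15.5 RPKM in the NPC samples. It was 3.54-fold higher in NPCs (difference 1.62 ± 0.08 (SE), limma adjusted p = 5.15e-06). Sfrp2 was at 0.0735, 0.108 and 0.106 RPKM in the ESC samples and at 6.72, 7.26 and 7.42 RPKM in the NPC samples. Sfrp2 was 74.7-fold higher (difference 2.89 ± 0.06 (SE), limma adjusted p = 4.45e-07). Sfrp5 was at 0.0343, 0.0554 and 0.0911 RPKM in the ESC samples and at 1.46, 1.80 and 1.95 RPKM in the NPC samples. Sfrp5 was 28.9-fold higher (difference 1.37 ± 0.07 (SE), limma adjusted p = 7.39e-06), or 38.8-fold higher without ESC replicate 3. Sfrp4 was at 0.291, 0.291 and 0.256 RPKM in the ESC samples and at 0.0235, 0.0742 and 0.119 RPKM in the NPC samples. Sfrp4 went the other way and was 3.87-fold lower in NPCs (difference -0.26 ± 0.04 (SE), limma adjusted p = 6.96e-04), with the NPC samples spread from 7 to 38 reads and all below the ESC samples.

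Frzb, a relative of these proteins, Wif1, which binds Wnt ligands through a domain of its own, and Dkk2 lay under the filter. Frzb had 1, 1 and 0 reads in the ESC samples and 182, 162 and 196 in the NPC samples, a ratio of 297 (exact 95% counting interval 81.7 to 2456). Wif1 had 7, 6 and 9 reads in the ESC samples and 114, 113 and 136 in the NPC samples. Dkk2 had 0, 0 and 0 reads in the ESC samples and 54, 58 and 79 in the NPC samples, at least 69.9-fold higher against the floor. All 3 were near silent in ESCs and above every ESC sample in every NPC sample. Dkk1, which blocks LRP5 and LRP6 and is itself induced by Wnt signals, was at 0.610, 0.624 and 0.675 RPKM in the ESC samples and 0.899, 0.598 and 0.472 in the NPC samples (difference 0.01 ± 0.09 (SE), limma adjusted p = 0.932). Dkk3, a divergent relative, was at 0.570, 0.526 and 0.419 RPKM and 0.490, 0.516 and 0.545 RPKM (difference 0.01 ± 0.05 (SE), limma adjusted p = 0.817). In both genes the groups overlapped, and the sign of the small difference turned with median-of-ratios scaling, to -0.11 in Dkk1 and -0.08 in Dkk3 (limma adjusted p = 0.349 and 0.0569). With quantile normalization the sign turned in both as well, and Dkk3 was called lower.

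The co-receptors LRP5 and LRP6 bind Wnt together with Frizzled. Lrp6 was at 0.993, 0.966 and 0.466 RPKM in the ESC samples and at 1.96, 1.79 and 1.89 RPKM in the NPC samples. Lrp6 rose and was 2.33-fold higher (difference 0.69 ± 0.13 (SE), limma adjusted p = 0.00285), or 1.92-fold higher without ESC replicate 3 (limma adjusted p = 1.75e-05). Lrp5 was at 1.05, 1.09 and 0.446 RPKM in the ESC samples and at 1.07, 1.09 and 1.10 RPKM in the NPC samples. Lrp5 did not pass the test (difference 0.19 ± 0.14 (SE), limma adjusted p = 0.277), and apart from ESC replicate 3 the 5 samples lay between 1.05 and 1.10 RPKM. The sign of its difference turned with quantile normalization. The 2 genes stood at 16.6 ± 0.759 and 11.4 ± 0.163 exon RPKM in NPCs.

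**Figure D3:**
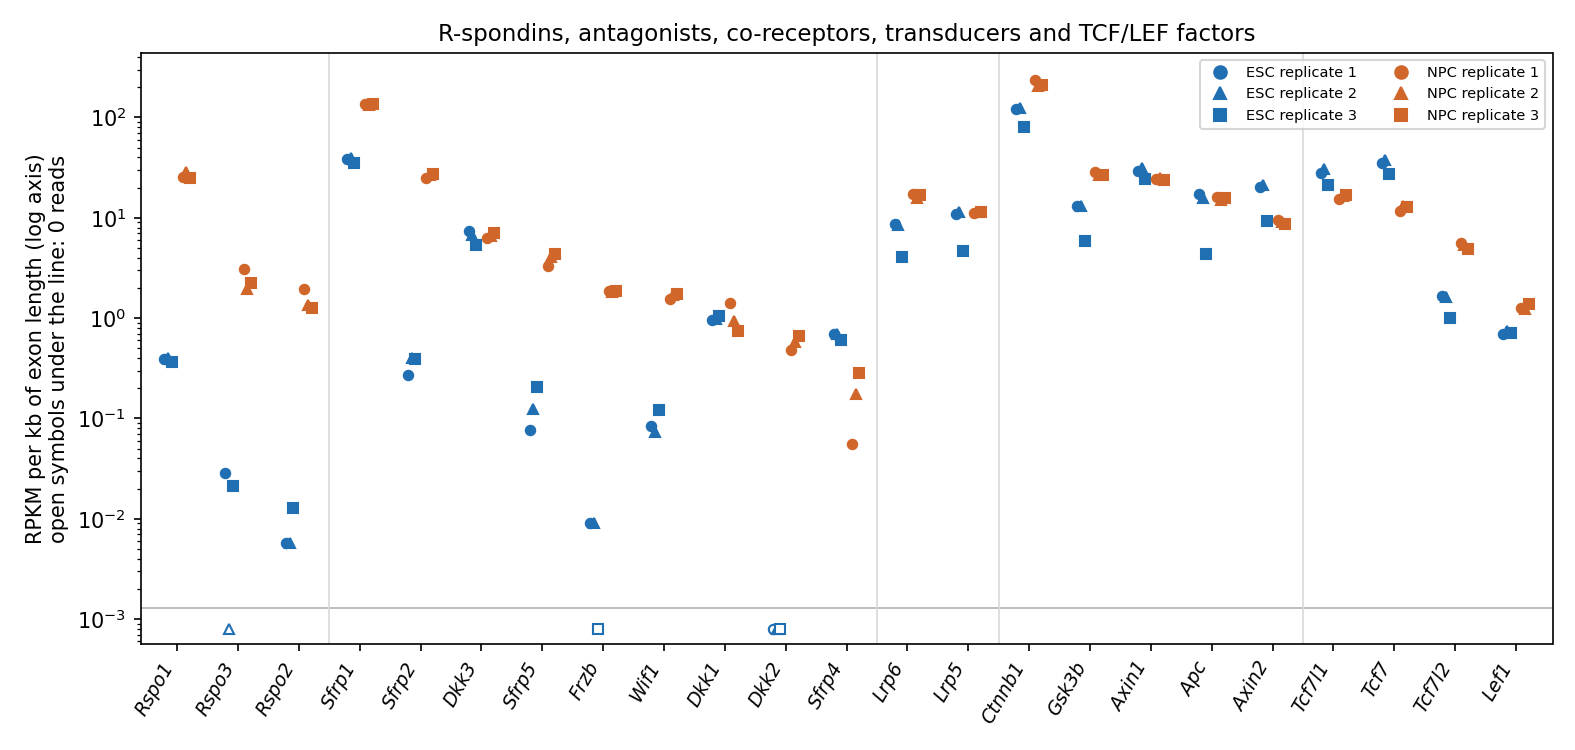
Level of the 3 R-spondins, 9 secreted antagonists, 2 co-receptors, 5 transducers and 4 TCF/LEF factors, set apart by grey lines, in the 3 ESC samples (blue) and the 3 NPC samples (orange), as RPKM per kb of exon length on a log axis with open symbols for 0 reads. Ctnnb1 is the highest in NPCs at 218 ± 13.8 (mean ± SD), and ESC replicate 3 (blue squares) is the lowest ESC sample in Lrp5, Lrp6, Ctnnb1, Gsk3b, Apc and Axin2.

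Among the transducers the genes for β-catenin and GSK3β rose in NPCs, the Axin2 level was lower without passing the test, and Apc and Axin1 did not pass it. Ctnnb1, which encodes β-catenin, lies at chr9:120929216-120960507, plus strand, and was the most abundant of all 42 genes in both cell types, at 108 ± 23.8 exon RPKM in ESCs and 218 ± 13.8 in NPCs. Ctnnb1 was at 19.9, 20.4 and 13.3 RPKM in the ESC samples and at 38.8, 34.5 and 35.3 RPKM in the NPC samples. It was 2.03-fold higher (difference 1.00 ± 0.18 (SE), limma adjusted p = 0.00236), or 1.80-fold higher without ESC replicate 3 (limma adjusted p = 2.70e-05, and over all alternatives 2.70e-05 to 0.0149). Gsk3b was at 0.821, 0.825 and 0.370 RPKM in the ESC samples and at 1.78, 1.66 and 1.67 RPKM in the NPC samples. Gsk3b, whose protein is the target of the inhibitor in the ESC medium, was 2.54-fold higher (difference 0.71 ± 0.12 (SE), limma adjusted p = 0.00190), or 2.07-fold higher without ESC replicate 3 (limma adjusted p = 8.17e-06, and over all alternatives 8.17e-06 to 0.0122). In both genes every NPC sample was above every ESC sample. RNA levels say nothing of the amount or activity of either protein.

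Axin2, a scaffold of the destruction complex and a widely used target gene of β-catenin, lies at chr11:108920349-108950783, plus strand. Axin2 was at 3.69, 3.85 and 1.69 RPKM in the ESC samples and at 1.71, 1.66 and 1.58 RPKM in the NPC samples. ESC replicates 1 and 2 were more than 2 times every NPC sample, while ESC replicate 3 was level with them. With all samples the mean was 1.86-fold lower in NPCs and missed the threshold (difference -0.57 ± 0.23 (SE), limma adjusted p = 0.0589). Without ESC replicate 3 it was 2.28-fold lower (limma adjusted p = 2.79e-06). It also passed in limma with the replicate block (adjusted p = 0.0399), with median-of-ratios scaling (adjusted p = 0.0106) and with quantile normalization. Whether Axin2 counts as lower thus depends on 1 library and on the scaling (adjusted p over all alternatives 2.79e-06 to 0.450).

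Apc was at 2.72, 2.52 and 0.687 RPKM in the ESC samples and at 2.56, 2.398 and 2.53 RPKM in the NPC samples. Apc, the large scaffold of the same complex with 16116 exon bases, did not pass the test (difference 0.32 ± 0.30 (SE), limma adjusted p = 0.371), and without ESC replicate 3 the sign of its difference turned (limma adjusted p = 0.287). The other 5 samples lay between 2.398 and 2.72 RPKM. Axin1 was at 1.98, 2.09 and 1.63 RPKM in the ESC samples and at 1.64, 1.67 and 1.58 RPKM in the NPC samples. Axin1, the constitutive scaffold, was 1.16-fold lower in NPCs without passing the test (difference -0.14 ± 0.08 (SE), limma adjusted p = 0.158), and did pass it without ESC replicate 3, where it was 1.25-fold lower (limma adjusted p = 0.00150). It also passed with median-of-ratios scaling (difference -0.32, limma adjusted p = 0.00237) and with quantile normalization, and its sign turned with samples rescaled to equal sums, so for Axin1 too the call depends on 1 library and on the scaling.

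The 4 TCF/LEF factors, the DNA-binding partners of β-catenin, split by direction. Tcf7 and Tcf7l1 fell in NPCs, Tcf7l2 rose, and Lef1 lay under the filter with higher values in NPCs. Tcf7 was at 3.04, 3.23 and 2.36 RPKM in the ESC samples and at 0.994, 1.12 and 1.10 RPKM in the NPC samples. Tcf7, which encodes TCF1 and mostly activates targets, was 2.68-fold lower (difference -0.90 ± 0.10 (SE), limma adjusted p = 2.52e-04). Tcf7l1 was at 0.677, 0.744 and 0.511 RPKM in the ESC samples and at 0.374, 0.402 and 0.409 RPKM in the NPC samples. Tcf7l1 encodes TCF3, the factor that represses pluripotency genes in ESCs when β-catenin is absent, and was 1.63-fold lower (difference -0.23 ± 0.06 (SE), limma adjusted p = 0.00993). With samples rescaled to equal sums Tcf7l1 no longer passed (limma adjusted p = 0.399, and over all alternatives 3.39e-05 to 0.399). All 3 ESC samples were above all 3 NPC samples in both genes.

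Tcf7l2 was at 0.0753, 0.0748 and 0.0459 RPKM in the ESC samples and at 0.256, 0.245 and 0.224 RPKM in the NPC samples. Tcf7l2 was 3.70-fold higher (difference 0.22 ± 0.02 (SE), limma adjusted p = 9.68e-05), or 3.22-fold higher without ESC replicate 3, and did not pass with quantile normalization (limma adjusted p = 0.0993, and over all alternatives 4.84e-05 to 0.0993). Lef1 was at 0.0534, 0.0575 and 0.0551 RPKM in the ESC samples and at 0.0976, 0.0960 and 0.107 RPKM in the NPC samples. Lef1 had 621 reads over the ESC samples and 1027 over the NPC samples, and its mean RPKM of 0.0778 over a gene of 113886 bases kept it under the filter (voom adjusted p = 5.87e-04). Per exon length the order of the 4 genes differed between the cell types. In ESCs it was Tcf7 at 33.6 ± 5.34, Tcf7l1 at 26.7 ± 4.99, Tcf7l2 at 1.43 ± 0.368 and Lef1 at 0.717 ± 0.0271 exon RPKM, and in NPCs it was Tcf7l1 at 16.4 ± 0.779, Tcf7 at 12.5 ± 0.804, Tcf7l2 at 5.28 ± 0.358 and Lef1 at 1.30 ± 0.0781. Tcf7 and Tcf7l1 overlapped in the ESC samples and did not overlap in the NPC samples.

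Another 77 genes of the pathway, in 7 lists, were read in the same test. Of these 66 were tested, 40 rose, 17 fell and 9 did not pass, with a median difference of 0.30 against 0.09 over all genes tested. Over all genes tested 41.9% were called higher and 30.0% lower, which also holds as the background for each list that follows, and no direction is read from the counts. Nkd1, Notum, Lgr5, Rnf43 and Znrf3 stand in a list by role and again in that of target genes, and are counted once in this total.

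Of 13 genes for Wnt secretion and extracellular modulation 8 were tested, 5 rose and 2 fell. Gpc3, a heparan sulfate proteoglycan of the cell surface, was at 0.181 ± 0.0155 RPKM in ESCs and 3.80 ± 0.0286 RPKM in NPCs (difference 2.02 ± 0.05 (SE), limma adjusted p = 5.43e-07). Wls, the carrier that takes Wnt proteins to the cell surface, was at 0.143 ± 0.00275 RPKM in ESCs and 1.94 ± 0.122 RPKM in NPCs (difference 1.36 ± 0.05 (SE), limma adjusted p = 1.35e-06). Sdc1, another proteoglycan, was at 1.17 ± 0.0587 RPKM in ESCs and 3.73 ± 0.315 RPKM in NPCs (difference 1.12 ± 0.07 (SE), limma adjusted p = 2.03e-05). Notum, the enzyme that removes the lipid from Wnt proteins and is itself a target of the pathway, fell from 12.4 ± 1.72 to 0.195 ± 0.0198 RPKM (difference -3.48 ± 0.10 (SE), limma adjusted p = 7.99e-07). Gpc4, a relative of Gpc3, fell and was at 0.391 ± 0.0444 RPKM in ESCs and 0.0751 ± 0.0108 RPKM in NPCs (difference -0.37 ± 0.03 (SE), limma adjusted p = 3.91e-05).

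Of 13 co-receptors and membrane regulators 10 were tested, 8 rose and 1 fell. Adgra2 and Reck, which together let Wnt7 ligands signal in brain vessels, had the largest rises among the tested genes of this list on the log2(RPKM + 1) scale. Adgra2 was at 0.00766 ± 0.00371 RPKM in ESCs and 6.08 ± 0.654 RPKM in NPCs (difference 2.81 ± 0.08 (SE), limma adjusted p = 7.86e-07). Reck was at 0.0642 ± 0.0171 RPKM in ESCs and 1.97 ± 0.0465 RPKM in NPCs (difference 1.48 ± 0.04 (SE), limma adjusted p = 6.19e-07). Kremen1, a Dickkopf receptor, was at 0.272 ± 0.0733 RPKM in ESCs and 0.830 ± 0.0379 RPKM in NPCs (difference 0.53 ± 0.05 (SE), limma adjusted p = 1.16e-04). Its relative Kremen2 fell and was at 0.304 ± 0.0673 RPKM in ESCs and 0.0770 ± 0.0171 RPKM in NPCs (difference -0.28 ± 0.04 (SE), limma adjusted p = 8.18e-04).

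Of 17 cytoplasmic transducers 16 were tested, 13 rose and none fell, where 41.9% of all genes were called higher and 30.0% lower. Limma voom on recovered reads called 0 lower and 13 higher, where it called 27.0% of 16111 genes lower and 45.6% higher. Dact1, a binding partner of Dishevelled, was at 0.127 ± 0.0265 RPKM in ESCs and 3.78 ± 0.251 RPKM in NPCs (difference 2.08 ± 0.06 (SE), limma adjusted p = 8.44e-07). Amer1, which brings Axin and APC to the membrane, was at 0.965 ± 0.409 RPKM in ESCs and 3.81 ± 0.161 RPKM in NPCs (difference 1.31 ± 0.16 (SE), limma adjusted p = 3.87e-04). Csnk1e, a kinase of Dishevelled, was at 2.32 ± 0.315 RPKM in ESCs and 6.96 ± 0.215 RPKM in NPCs (difference 1.27 ± 0.09 (SE), limma adjusted p = 3.12e-05). No gene of this list was lower at an unadjusted p under 0.05 in limma on log2(RPKM + 1) as deposited. Dact2 had a lower mean without passing (difference -0.26 ± 0.12 (SE), limma adjusted p = 0.0827). Axin1 and Axin2, described above, are not in this list, and its calls under other scalings are not given here.

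Of 11 nuclear cofactors all 11 were tested, 8 rose and 2 fell. Hic1, a repressor that binds TCF4, was at 0.0350 ± 0.00492 RPKM in ESCs and 17.0 ± 1.69 RPKM in NPCs (difference 4.12 ± 0.09 (SE), limma adjusted p = 3.95e-07). Bcl9l, which joins β-catenin in activating genes, was at 0.795 ± 0.263 RPKM in ESCs and 4.21 ± 0.0932 RPKM in NPCs (difference 1.55 ± 0.12 (SE), limma adjusted p = 3.71e-05). Pygo1, a partner of the BCL9 proteins, was at 0.0557 ± 0.00738 RPKM in ESCs and 1.81 ± 0.105 RPKM in NPCs (difference 1.41 ± 0.04 (SE), limma adjusted p = 9.08e-07). Pygo2 fell, at 24.4 ± 2.05 RPKM in ESCs and 19.0 ± 0.219 RPKM in NPCs (difference -0.35 ± 0.10 (SE), limma adjusted p = 0.0192), but the sign turned, to 0.06, with samples rescaled to equal sums, and the call was lost without NPC replicate 1, 2 or 3 (adjusted p over all limma alternatives 9.36e-04 to 0.684). The co-repressor Tle4 fell, at 0.661 ± 0.105 RPKM in ESCs and 0.390 ± 0.00994 RPKM in NPCs (difference -0.25 ± 0.05 (SE), limma adjusted p = 0.00424).

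Of 9 planar polarity genes 8 were tested, 5 rose and 1 fell. Celsr2, an atypical cadherin, was at 0.231 ± 0.0929 RPKM in ESCs and 5.24 ± 0.873 RPKM in NPCs (difference 2.33 ± 0.12 (SE), limma adjusted p = 5.86e-06). Daam2, a formin, was at 0.00271 ± 3.06e-04 RPKM in ESCs and 0.551 ± 0.0230 RPKM in NPCs (difference 0.63 ± 0.02 (SE), limma adjusted p = 1.14e-06). Prickle1, a cytoplasmic protein of this branch, was at 0.0142 ± 8.07e-04 RPKM in ESCs and 0.36 ± 0.00929 RPKM in NPCs (difference 0.42 ± 0.02 (SE), limma adjusted p = 2.00e-06). Vangl1, a membrane protein of the same branch, fell and was at 2.297 ± 0.101 RPKM in ESCs and 1.02 ± 0.0468 RPKM in NPCs (difference -0.71 ± 0.06 (SE), limma adjusted p = 5.99e-05).

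Genes known as targets of β-catenin moved both ways. Of 15 listed 13 were tested, 8 fell and 4 rose. Sp5, a zinc finger factor, was at 8.58, 10.0 and 9.75 RPKM in the ESC samples and 0.579, 0.758 and 0.806 in the NPC samples (difference -2.61 ± 0.09 (SE), limma adjusted p = 1.39e-06). T (Brachyury), the primitive streak gene, was at 0.964, 1.04 and 0.869 RPKM and 0.0164, 0.00909 and 0.0115 RPKM (difference -0.95 ± 0.04 (SE), limma adjusted p = 2.26e-06). Among the genes that rose, Myc, a growth regulator, was at 1.43 ± 0.107 RPKM in ESCs and 5.66 ± 0.481 RPKM in NPCs (difference 1.45 ± 0.08 (SE), limma adjusted p = 9.52e-06). Nkd1, which binds Dishevelled and acts against the pathway, was at 0.0135 ± 0.00150 RPKM in ESCs and 0.797 ± 0.0386 RPKM in NPCs (difference 0.83 ± 0.03 (SE), limma adjusted p = 1.01e-06). Rnf43, which removes Frizzled from the membrane, was at 0.0610 ± 0.0171 RPKM in ESCs and 0.226 ± 0.0412 RPKM in NPCs (difference 0.21 ± 0.03 (SE), limma adjusted p = 6.91e-04). Rnf43 no longer passed with quantile normalization (limma adjusted p = 0.363, and over all alternatives 2.60e-04 to 0.363).

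The 4 genes known to be repressed by TCF7L1 in ESCs, Esrrb, Nanog, Klf2 and Tfcp2l1, also known as genes of the pluripotent state, fell. Nanog was at 98.1 ± 3.04 RPKM in ESCs and 0.0541 ± 0.0244 RPKM in NPCs (difference -6.56 ± 0.08 (SE), limma adjusted p = 2.32e-07). Klf2, a zinc finger factor, was at 84.4 ± 19.6 RPKM in ESCs and 0.906 ± 0.0939 RPKM in NPCs (difference -5.46 ± 0.17 (SE), limma adjusted p = 9.00e-07). Tfcp2l1, a factor of the naive state, was at 18.3 ± 8.11 RPKM in ESCs and 0.0459 ± 0.00634 RPKM in NPCs (difference -4.09 ± 0.34 (SE), limma adjusted p = 6.25e-05). Nanog, Esrrb and Tfcp2l1 are also among the ESC markers given above, so this list is no separate evidence.

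The position of the 42 genes was set against the NADs, which number 1769 in ESCs with a median length of 298 kb, and 1447 in NPCs with a median of 200.4 kb. The gene body overlapped a NAD of ESCs in 11 of 42 genes (26.2%), where 27.2% of the 21259 genes with a position on a listed chromosome did. For the NADs of NPCs it was 7 of 42 (16.7%), against 21.7%. Both shares lay near or below those of all genes, and no test was made. Frzb, Lrp6, Apc, Gsk3b, Rspo2 and Rspo3 overlapped NADs of both lists, Wnt2b, Sfrp4, Dkk1, Dkk2 and Lrp5 those of ESCs only, and Wnt2 those of NPCs only. The other 30 genes, among them 17 of the 19 ligands, Sfrp1, Sfrp2, Axin2, Ctnnb1 and all 4 TCF/LEF factors, overlapped none.

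Of the 7 genes in NADs of NPCs, Lrp6 and Gsk3b rose, Wnt2, Frzb, Rspo2 and Rspo3 had more reads in every NPC sample than in any ESC sample, and the Apc samples overlapped. Since voom on recovered reads called 31 of all 42 genes higher, these directions are a description and show no link with NADs. Wnt2, with 0 reads in ESCs and 321 in NPCs, lies inside the NPC domain chr6:13500001-18901329, and in ESCs its nearest NAD was 88.9 kb away. Rspo3 overlapped the domain chr10:26999475-30600829 of ESCs and chr10:26599592-30800897 of NPCs. Rspo2 overlapped chr15:41800338-44699442 of ESCs and chr15:41599565-44000838 of NPCs. Frzb overlapped chr2:77899753-80700547 of ESCs and chr2:80299399-80699861 of NPCs. These 3 genes thus overlapped NADs of both lists. Wnt2b, which rose, overlapped the ESC domain chr3:104600201-104999857 and lay 45.0 kb from the nearest NAD of NPCs. Sfrp4, which fell, overlapped the ESC domain chr13:19499565-21600325 and lay 23.6 kb from the nearest of NPCs. Dkk1 was in the ESC domain chr19:29499267-32199498 and outside NPC domains, with overlapping RNA levels in the 2 cell types. Of the other genes in NADs of ESCs only, Dkk2 had reads in NPCs alone and the Lrp5 samples overlapped. The domains are those the authors found in both samples of a cell type, with a single score, so no spread between samples can be given for the overlap.

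Promoter sequences from RefSeq (GRCm38.p6) were found for 29 of the 42 genes, with 38 starts in all. The 250 bases before each start were searched on both strands for CTTTGAT and CTTTGAA, the core bound by TCF/LEF factors, and for a direct repeat of AGGTCA with 5 bases between, which retinoic acid receptors bind. The first 2 share their first 6 letters. CTTTGAT or CTTTGAA stood in 3 of these 38 windows, 1 each of Wnt11, Wnt5b and Dkk1, where 7.48% of 32851 windows of all genes hold one, and the repeat in none, where 0.00913% do. A match is a description of the letters and says nothing of binding, and no match says only that these letters are not in this window. The windows with a match are shown since Wnt11 rose, Dkk1 is known to respond to Wnt signals and its groups overlapped here, and Wnt5b was the highest ligand of ESCs. The Wnt11 window is chr7:98834862-98835111, plus strand, the match lies on the minus strand at -51 to -45 from the start, and capitals mark it.

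Wnt11: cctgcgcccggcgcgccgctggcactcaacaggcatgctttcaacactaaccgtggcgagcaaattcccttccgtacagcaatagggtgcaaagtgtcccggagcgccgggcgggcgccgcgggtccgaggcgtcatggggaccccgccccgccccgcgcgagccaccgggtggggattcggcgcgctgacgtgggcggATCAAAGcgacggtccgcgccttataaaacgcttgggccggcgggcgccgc

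For Dkk1 (window chr19:30549497-30549746, minus strand) and for 1 of the starts of Wnt5b (window chr6:119449387-119449636, minus strand) 29 bases around the match are given in the direction of the gene, with the match in capitals. In Dkk1 the match begins at -117 and in Wnt5b at -71 from the RefSeq start, and the Wnt5b start lies within the gene's span, downstream of its first start.

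Dkk1: tcctcccaaagCTTTGAAatcccatcccg

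Wnt5b: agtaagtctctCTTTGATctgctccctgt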

How the data were processed

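RNAseq was single-end and polyA-selected, 3 ESC and 3 NPC samples grouped and numbered by their labels. The authors deposited RPKM per gene, after alignment to mm10 and, by the study's methods, from the coverage of exons; the length divided by, the annotation and the use of strand are not stated, and the labels and the methods name different aligners and kits. Each score is the authors' value per NAD, both DamID samples joined, from peaks of the log2 ratio of the fusion with the nucleolar signal over the one without it. Symbols on more than 1 line of a table (153) were left out. Reads were recovered as RPKM times gene span (GENCODE M21), and were whole in 40 of the 42 genes; those of Wnt7b and Apc were whole at slightly different lengths. limma 3.58.1 (R 4.3.3) with trend was fitted to log2(RPKM + 1) of genes with a mean of at least 0.1 RPKM, two-sided, with Benjamini-Hochberg adjustment over all genes tested. The fit was also run on simulated data, for which no values are given here. Tables and figures used Python 3.11.15, pandas 2.3.3, numpy 2.4.6, scipy 1.17.1 and matplotlib 3.10.9. The rule for named genes took the 10 largest rises and falls among the 42 genes, Axin2, Lef1, Tcf7, Tcf7l1, Tcf7l2, Ctnnb1, Gsk3b and Apc whatever their values, and the 3 largest rises and falls of each other list; the other genes of the 42 are described by levels. The 42 genes and the lists were chosen with earlier results of these data known. Alternatives were other pseudocounts, filters and scalings, limma without trend, a replicate block and leaving out each sample. RPKM per kb of exon length and limma voom on recovered reads (at least 10 reads over the samples) were chosen after seeing the data. The ChIPseq samples were not used.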

Additional observations from a re-analysis of the deposited data

How the results depend on the processing

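In the counts of the 42 genes (15 rose, 3 fell; with a difference of at least 1, 11 and 0), a filter at a mean of 1 RPKM left 9 rising and 1 falling, with 7 rising by at least 1, since fewer genes were tested. Over all genes that filter left 2380 of 7150 called higher and 2465 lower. Without a filter 31 rose, where 7200 of 18217 genes were called higher. With RPKM per kb of exon length, chosen after seeing the data, 29 rose, 21 by at least 1, and 1 fell by at least 1. Over all genes this fit called 6587 of 14476 higher and 4124 lower. With limma voom on recovered reads, also chosen after seeing the data, 31 rose, 29 by at least 1, and 3 fell by at least 1. Voom called 45.6% of 16111 genes higher and 27.0% lower. The cause was not tested for either of these 2 fits. For all genes, calls by at least 1 are given only for the first fit (10.9% and 7.97%). Counts by at least 1 under the alternatives thus show no direction. With a pseudocount of 0.1 RPKM 2 fell by at least 1, and with 0.5 RPKM 1 did, since a smaller pseudocount widens differences at low RPKM. Median-of-ratios scaling gave 5 falls and quantile normalization 6, each with 1 by at least 1, and the cause was not tested. Of all 12027 genes these 2 scalings called 4456 and 4685 lower, against 3606 in the first fit, so no direction is read from the added falls. Leaving out each sample in turn gave 15 to 16 rises and 3 to 5 falls, 5 without ESC replicate 3.

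For the other pathway genes (40 rose, 17 fell; 16 and 6 by at least 1), the filter at 1 RPKM left 23 and 9, since fewer genes were tested. By at least 1, 27 rose and 13 fell with a pseudocount of 0.1 RPKM, 34 rose with samples rescaled to equal sums, 32 rose and 10 fell per kb of exon length, and 38 rose and 15 fell with voom. Of all 12027 genes, equal sums called 5915 higher and 2253 lower, and the numbers for exon length and voom are given above. No direction is read from these counts.

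The scalings moved the median difference of all genes by 0.45 (equal sums), -0.16 (median of ratios) and -0.16 (quantile). Of all calls 58.3% were higher in NPCs as deposited, 72.4% with equal sums, 48.7% with median of ratios and 46.5% with quantile normalization, so small differences have no fixed sign. Pygo2 turned to 0.065 with equal sums. Apc turned to -0.051 without ESC replicate 3, and lay at up to 0.52 without another sample, and the cause was not tested. Of the alternatives for the 47 differences picked by the rule for named genes, 767 values kept direction and side of the threshold, 9 lost the call, 4 gained it and 2 turned (Pygo2 and Apc). Axin1, Dkk1, Dkk3 and Lrp5, which are not among these, turned with at least 1 alternative.

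With the replicate block 15 rose and 4 fell, Axin2 being added, and 8299 genes were called against 8650. Samples of the same number showed no pairing, with correlations over genes of 0.11, -0.08 and 0.03 between their deviations from the group means.

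With only NADs at or above the median score of their list, 6 of the 42 genes overlapped a NAD of ESCs and 3 one of NPCs, against 11 and 7, since fewer domains were used; of all genes 16.5% and 12.4% did. By transcription start it was 10 and 6, where it was 23.7% and 19.0% of all genes.

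Depth limits the genes with few reads, in which a single sample cannot tell absence from a few molecules.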
